A study of Mus musculus with 12 samples.

Results

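Trp63 encodes p63, and together with 8 genes of the DNA damage checkpoint it was followed through postnatal growth of the mouse oocyte. The genes were Trp63 and Trp53, which encode transcription factors of the p53 family, Atm and Atr, which encode the kinases that sense damaged DNA, Chek1 and Chek2, which encode the checkpoint kinases downstream of them, Mdm2, which encodes an inhibitor of p53, and Bbc3 and Pmaip1, which encode the death effectors PUMA and NOXA. They were chosen by symbol, and all 9 are listed, once each, among the 24562 genes of the count table. RNA-Seq had been performed on 12 pools of 18 to 45 oocytes, collected without hormone stimulation from the antral follicles of CD-1 mice. There were 3 pools in each of 4 cohorts: PND13, PND16 small, PND16 large and PND40 (PND, postnatal day). PND16 mice had been divided by body weight, and no treatment of the mice or genetic change is described for any cohort. In the paper's collection protocol, the media held milrinone, which keeps oocytes in meiotic arrest. Cumulus cells were removed by gentle pipetting. The study regards oocytes of PND13 and PND16 small mice as lacking meiotic competence, and those of PND16 large and PND40 mice as competent. It describes the PND16 large oocytes as being of suboptimal quality. Its results on competence by weight at PND16 came from few mice and are not shown.

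In oocytes that rest in prophase of meiosis, the full-length form of p63, TAp63, is held inactive as a dimer. Double-strand breaks signal through ATM and CHK2, which leads to phosphorylation of TAp63, its assembly into an active tetramer and transcription of Bbc3 and Pmaip1, and the oocyte dies. ATR and CHK1 act in a parallel branch that answers to single-stranded DNA and restrains entry into M phase. MDM2 binds p53 and marks it for degradation.

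Oocyte markers were present in every library. The 12 oocyte markers examined (among them Zp1, Zp2, Zp3, Gdf9 and Bmp15) summed to between 15190 and 19900 CPM (read counts relative to the total of the pool, scaled between pools by TMM), and none was at 0 in every pool of a cohort. Their sum was lowest at PND40, at 15190 to 15830 CPM, against 16860 to 19900 in the other cohorts. The 14 granulosa and cumulus cell markers summed to 220.5 to 635 CPM at PND13, 272 to 665 in PND16 small, 331 to 351 in PND16 large and 305 to 331 at PND40. PND13 replicates 1 and 3 and PND16 small replicate 2 stood apart, with sums of 582, 635 and 665 CPM. Inha, which encodes the inhibin alpha subunit, reached 97.1, 143 and 131 CPM in these 3 pools and lay between 2.34 and 20.7 CPM in the others. Esr2, Nr5a2, Cyp19a1, Kitl and Cyp11a1 did not set the 3 pools apart. Esr2 had 95.1, 74.2 and 125 CPM in them and 83.5 to 148 CPM in the others. The remaining markers, like Inha, were higher in each of the 3 than in any other pool. None of the 14 markers was at 0 in every pool of a cohort, and their part in the results below was not tested, but the counts of called genes are also given without these pools, which leaves PND13 with 1 pool, assumed to vary like the others. The share of all genes called was not counted for this leave-out, so its counts have no background beside them. Because the pools are bulk samples and their levels are relative to all RNA counted, fewer cells of a type and less RNA per cell cannot be told apart.

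The levels below are CPM, given as mean ± SD of n = 3 pools unless stated. Total counts were 17671193 to 27418358 reads per pool. All of the 9 genes but Bbc3, 8 in number, were among the 13943 with enough reads to be tested, and p-values come from edgeR's quasi-likelihood test, adjusted by the Benjamini-Hochberg method over all genes tested. A gene was called differentially expressed when its level changed 1.5-fold or more with an adjusted p no higher than 0.05, and as differing among the 4 cohorts by the adjusted p alone. The pools are described as independent, and the p-values measure the spread between these pools. The pairwise comparisons share pools and are given side by side. Where all pools of a group lay above or below all pools of another, the share of all genes that did so was not counted. Such separation is therefore only a description.

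Relative to the length of its longest coding transcript, Chek1 was the most abundant of the 9 genes, with a mean over the 12 pools of 138 CPM per kb. Mdm2 followed with 54.9 and Atr with 18.6 CPM per kb. Trp63 (12.5 CPM per kb) and Trp53 (10.3 CPM per kb) were close to each other, and their ranges over pools, 7.94 to 16.8 and 8.23 to 11.3 CPM per kb, overlapped. Atm had 3.82 and Chek2 2.37 CPM per kb, and the death effectors Pmaip1 and Bbc3 were lowest, with 0.188 and 0.089 CPM per kb.

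**Figure D1:**
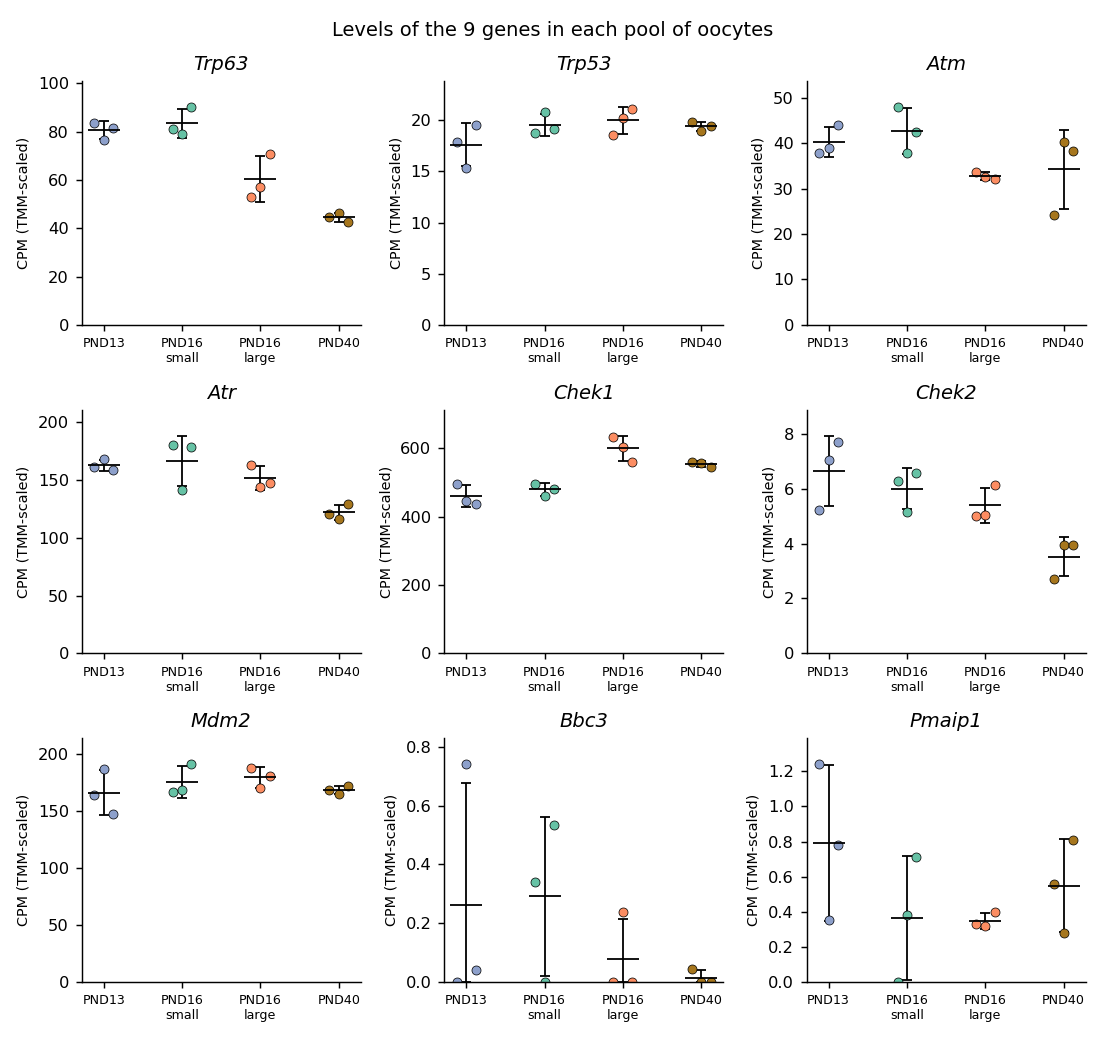
Level of each of the 9 genes (y axis, TMM-scaled CPM, linear from 0, its own scale in each panel) in the 4 cohorts (x axis); circles are pools, horizontal lines are means and error bars are SD, cut at 0. Trp63 lies at 42.6 to 46.4 CPM in the 3 PND40 pools and at 76.7 to 90.2 CPM in the 6 non-competent pools, whereas Trp53 and Mdm2 overlap among all cohorts.

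In the 4-cohort test, 4 of the 8 genes tested differed among cohorts: Trp63 (adjusted p = 1.5e-04), Chek1 (adjusted p = 0.00218), Atr (adjusted p = 0.00667) and Chek2 (adjusted p = 0.0329). Of all genes tested, 39.7% did so. For Atm, Trp53, Pmaip1 and Mdm2 the adjusted p was 0.168, 0.55, 0.592 and 0.635.

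Trp63 (chr16:25683763-25892102, plus strand, GRCm38) was lower in competent oocytes. It was at 83.8, 76.7 and 81.4 CPM in the PND13 pools and at 81.2, 79.0 and 90.2 CPM in the PND16 small pools. PND16 large pools had 52.9, 57.1 and 70.9 CPM, and PND40 pools had 44.6, 46.4 and 42.6 CPM. Each of the 6 competent pools was therefore below each of the 6 non-competent pools, and each PND40 pool was below each PND16 large pool. Competent oocytes had 52.4 ± 10.6 CPM and non-competent oocytes 82.0 ± 4.64 CPM (n = 6 pools each), a log2 fold change of -0.65 (SE 0.111, adjusted p = 0.000689). It was the only one of the 8 genes called in this comparison, in which 15% of all genes tested were called, 3.78% higher and 11.2% lower in competent oocytes.

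The PND40 level of Trp63 was 0.553 times that at PND13 (log2 fold change -0.86, SE 0.107, adjusted p = 9.38e-05) and 0.534 times that in PND16 small (log2 fold change -0.91, SE 0.107, adjusted p = 0.000103). Both were called. PND13 and PND16 small, neighbors at the top of the order with 80.6 ± 3.60 and 83.5 ± 5.91 CPM, were not distinguished (log2 fold change 0.05, 95% interval -0.18 to 0.28). PND16 large, at 60.3 ± 9.45 CPM, lay between them and PND40 with 44.6 ± 1.90 CPM. The PND16 large level passed the adjusted p but fell short of the fold criterion against PND13 (log2 fold change -0.42, adjusted p = 0.0121), PND16 small (-0.47, adjusted p = 0.0145) and PND40 (PND40 vs. PND16 large -0.44, adjusted p = 0.0284). These 3 depended on single pools. The adjusted p rose to 0.0573 against PND13 without PND16 large replicate 1, and to 0.083 and 0.064 against PND16 small without PND16 large replicate 1 or 2. Against PND40 it rose to between 0.0504 and 0.122 without PND16 large replicate 2 or 3 or without any one PND40 pool.

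Trp63 was compared with the granulosa markers within the non-competent cohorts. The 3 pools with high marker sums had 83.8, 81.4 and 79.0 CPM of Trp63, and the other 3 non-competent pools had 76.7, 81.2 and 90.2 CPM, so that the 2 sets overlapped. Without the 3 pools, Trp63 stayed called in PND40 vs. PND13 (log2 fold change -0.80, adjusted p = 0.00767), PND40 vs. PND16 small (-0.95, adjusted p = 0.00053) and competent vs. non-competent oocytes (-0.66, adjusted p = 0.00991). PND16 large vs. PND13 no longer passed (-0.35, adjusted p = 0.172).

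**Figure D2:**
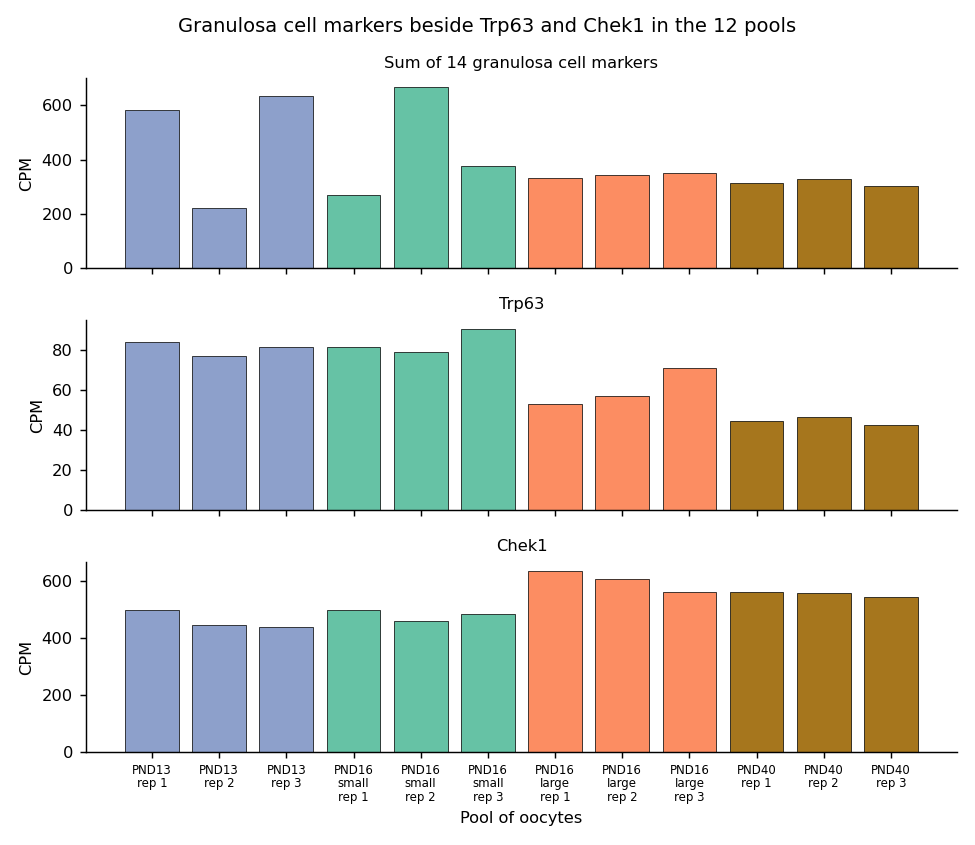
Summed level of 14 granulosa cell markers (top), Trp63 (middle) and Chek1 (bottom) in the 12 pools (x axis); y axes are CPM from 0 and colors mark cohorts. The 3 pools with marker sums of 582 to 665 CPM have 79.0 to 83.8 CPM of Trp63, within the 76.7 to 90.2 CPM of all non-competent pools.

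Trp63 is transcribed from alternative starts, and the counts sum them. GENCODE lists 8 protein-coding Trp63 transcripts, 4 from the first start, which gives the TA forms, and 4 from an internal start 118153 bases downstream, which gives the N-terminally truncated forms. The gene-level counts do not tell these forms apart.

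Trp53 (chr11:69580359-69591873, plus strand), the other member of the p53 family followed here, had 17.9, 15.4 and 19.6 CPM at PND13, 18.7, 20.8 and 19.2 CPM in PND16 small, 18.6, 20.2 and 21.1 CPM in PND16 large and 19.9, 19.0 and 19.4 CPM at PND40. All cohorts overlapped. The log2 fold change of competent vs. non-competent oocytes was 0.09 with a 95% interval of -0.11 to 0.28, so that a difference of the size seen for Trp63 lay outside the interval.

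Chek1 (chr9:36708482-36727065, minus strand), which encodes the kinase that inhibits the CDC25 phosphatases, moved in the opposite direction from Trp63 by a smaller factor. It had 497, 446.9 and 438 CPM at PND13, 497, 460.2 and 483 CPM in PND16 small, 635, 605 and 560.2 CPM in PND16 large and 561, 556 and 545 CPM at PND40. Every competent pool was above every non-competent pool, with means of 577 ± 34.9 and 470.2 ± 25.7 CPM (n = 6 pools each). The difference was 1.23-fold (log2 fold change 0.30, SE 0.058, adjusted p = 0.00166) and thus below the 1.5-fold criterion. Order of the cohort means was PND13 (460.5 ± 31.97 CPM), PND16 small (480.0 ± 18.7 CPM), PND40 (554 ± 8.24 CPM) and PND16 large (600.1 ± 37.5 CPM). Neither PND16 small and PND13 (log2 fold change 0.06, 95% interval -0.09 to 0.21) nor PND40 and PND16 large (-0.11, 95% interval -0.26 to 0.03) were distinguished. PND16 large vs. PND13 was the largest step (0.38, adjusted p = 0.00191), followed by PND16 large vs. PND16 small (0.32, adjusted p = 0.0105), which no longer passed without PND16 large replicate 1 (adjusted p = 0.0618). PND40 vs. PND13 (0.27, adjusted p = 0.00943) had an adjusted p of 0.0516 without the 3 pools with high granulosa markers, at a log2 fold change of 0.29. PND40 vs. PND16 small (0.21, adjusted p = 0.0359) was lost without PND16 small replicate 2 or 3 or any one PND40 pool (adjusted p = 0.0627 to 0.11), without the 3 pools (0.17, adjusted p = 0.0966) and with only these 2 cohorts in the model (adjusted p = 0.0655).

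Chek2 (chr5:110839979-110874145, plus strand), which encodes the kinase that phosphorylates TAp63 after DNA breaks, was lowest at PND40. It had 5.21, 7.03 and 7.70 CPM at PND13, 6.27, 5.17 and 6.58 CPM in PND16 small, 4.99, 5.05 and 6.13 CPM in PND16 large and 2.70, 3.94 and 3.93 CPM at PND40. The PND40 pools, with 63, 99 and 107 reads, lay below all 9 other pools, which had 109 to 188 reads. PND40 vs. PND13 was called (log2 fold change -0.91, SE 0.236, adjusted p = 0.00958), as was PND40 vs. PND16 small (-0.77, SE 0.237, adjusted p = 0.0261). The latter call was lost without PND16 small replicate 3 (adjusted p = 0.0618) or PND40 replicate 1 (adjusted p = 0.108). PND40 vs. PND16 large gave -0.61 (adjusted p = 0.143), and competent vs. non-competent oocytes gave -0.50 (95% interval -0.93 to -0.08, adjusted p = 0.0681). The latter passed in 3 of 23 alternatives, with DESeq2, with the contrast of cohort means and without PND16 large replicate 3 (adjusted p = 0.0216 to 0.0435). The first 3 cohorts, at 6.65 ± 1.29, 6.01 ± 0.744 and 5.39 ± 0.641 CPM, were not distinguished from each other, with intervals as wide as -0.80 to 0.20 for PND16 large vs. PND13. The 4-cohort test of Chek2 was also lost without PND13 replicate 2 or 3 or without any one PND40 pool (adjusted p = 0.0558 to 0.135).

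Atr (chr9:95857597-95951781, plus strand), the kinase gene upstream of Chek1, was lowest at PND40, as was Chek2. Its levels were 161, 168 and 159 CPM at PND13, 180.1, 142 and 179 CPM in PND16 small, 164, 144 and 147 CPM in PND16 large and 120.3, 117 and 130 CPM at PND40, and the PND40 pools were again below all others. PND40 vs. PND13 gave a log2 fold change of -0.41 (SE 0.092, adjusted p = 0.00408) and PND40 vs. PND16 small -0.45 (SE 0.0921, adjusted p = 0.00275), both short of 1.5-fold, and PND40 vs. PND16 large gave -0.31 (adjusted p = 0.0581). This last comparison passed in 7 of 17 alternatives (adjusted p = 0.00673 to 0.0497), among them DESeq2 (0.0126) and the leave-out of the 3 pools with high granulosa markers (0.0258). The first 3 cohorts, at 163 ± 4.82, 167 ± 21.8 and 152 ± 10.3 CPM, overlapped. Competent vs. non-competent oocytes gave -0.27 (adjusted p = 0.0323), which was lost when any of 6 pools was left out (adjusted p = 0.0503 to 0.0757): PND13 replicate 1 or 2, PND16 small replicate 1 or any PND40 pool. An antisense gene, 1700065D16Rik, shares 726 exonic bases with Atr and had at most 1 read in any pool.

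Atm (chr9:53439149-53536740, minus strand), the kinase gene upstream of Chek2, was at the edge of the threshold in competent vs. non-competent oocytes. It had 37.7, 39.0 and 43.9 CPM at PND13, 47.9, 37.8 and 42.5 CPM in PND16 small, 33.6, 32.5 and 32.1 CPM in PND16 large and 24.1, 40.1 and 38.4 CPM at PND40. The PND16 large pools were below all non-competent pools, but 2 of the 3 PND40 pools were not. Competent vs. non-competent oocytes gave a log2 fold change of -0.31 (95% interval -0.55 to -0.07, adjusted p = 0.0518), and 11 of 23 alternatives passed (adjusted p = 0.0307 to 0.0485), among them DESeq2 (0.0307) and total-count scaling (0.0376). PND16 large vs. PND13 (-0.30, adjusted p = 0.201) passed with only these 2 cohorts in the model (adjusted p = 0.0494), and the other comparisons passed in no analysis run.

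**Figure D3:**
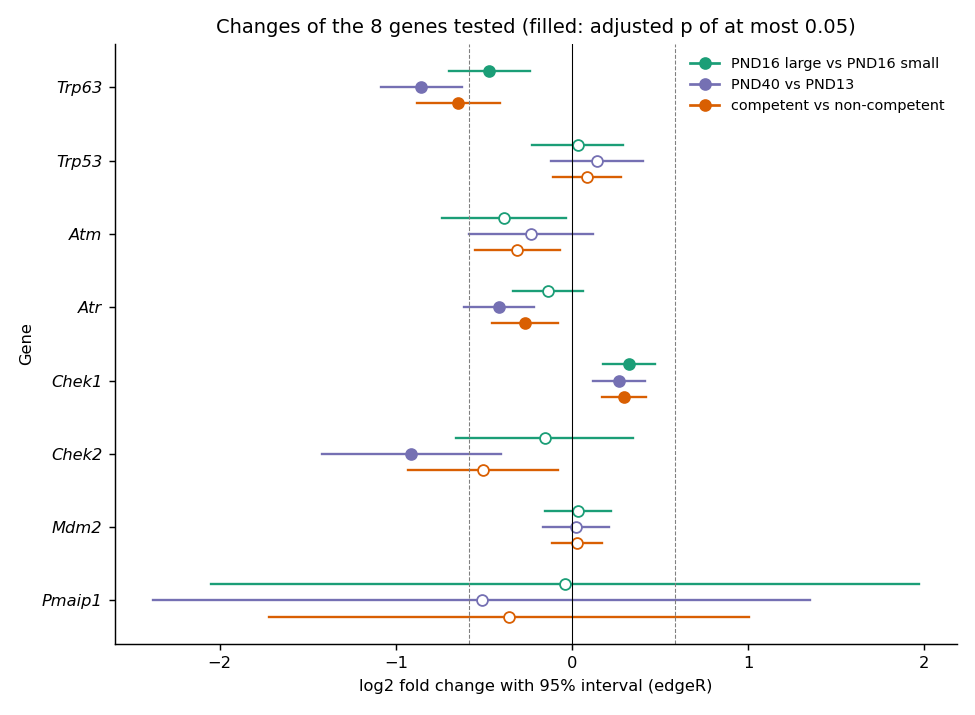
Log2 fold changes with 95% intervals (x axis) of the 8 genes tested (y axis) for PND16 large vs. PND16 small, PND40 vs. PND13 and competent vs. non-competent oocytes; filled circles have an adjusted p of at most 0.05, and dashed lines mark a 1.5-fold change. The intervals of Trp63 lie below 0 and those of Chek1 above 0 in all 3, and those of Pmaip1 run from below -1.5 to above 1.

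Mdm2 (chr10:117688875-117710758, minus strand) did not pass in any comparison. It had 164, 187 and 148 CPM at PND13, 167, 168 and 192 CPM in PND16 small, 188, 171 and 181 CPM in PND16 large and 168, 166 and 172 CPM at PND40. The 4 cohorts overlapped, and the 95% interval for competent vs. non-competent oocytes ran from -0.11 to 0.17 around a log2 fold change of 0.03, whose sign turned with total-count scaling (-0.005) and without the 3 pools with high granulosa markers (-0.07).

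The sequence before the start site is shown for 4 of the genes, Chek1, Chek2 and Atr because their levels differed among cohorts in different directions, and Mdm2 as a p53 target whose level did not pass. RefSeq windows (GRCm38.p6) were available for 7 of the 9 genes, and Trp63 and Pmaip1 had no entry. Each run holds the 250 bases before the start on the strand of the gene, 5′ to 3′, with motif matches on either strand in capitals. The motifs were the CCAAT box (CCAAT, in 33.8% of the 32851 windows of the table), the GC box (GGGCGG, 32.7%), the p53 family half-site (7.1%), the E-box (CACGTG, 6%), the homeobox core (TAATTA, 4.8%) and the cyclic AMP response element (TGACGTCA, 1.5%).
Chek1, chr9:36726659-36726908, minus strand: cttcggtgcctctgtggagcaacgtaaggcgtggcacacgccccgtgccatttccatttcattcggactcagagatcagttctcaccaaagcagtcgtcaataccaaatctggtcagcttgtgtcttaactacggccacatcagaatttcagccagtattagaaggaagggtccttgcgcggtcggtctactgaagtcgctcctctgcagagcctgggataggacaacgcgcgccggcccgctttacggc
Chek2, chr5:110839733-110839982, plus strand: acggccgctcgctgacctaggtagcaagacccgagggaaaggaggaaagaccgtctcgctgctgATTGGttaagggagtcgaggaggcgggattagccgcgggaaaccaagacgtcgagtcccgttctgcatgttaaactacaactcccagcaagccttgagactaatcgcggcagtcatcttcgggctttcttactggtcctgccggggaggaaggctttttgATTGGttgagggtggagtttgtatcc
Atr, chr9:95857347-95857596, plus strand: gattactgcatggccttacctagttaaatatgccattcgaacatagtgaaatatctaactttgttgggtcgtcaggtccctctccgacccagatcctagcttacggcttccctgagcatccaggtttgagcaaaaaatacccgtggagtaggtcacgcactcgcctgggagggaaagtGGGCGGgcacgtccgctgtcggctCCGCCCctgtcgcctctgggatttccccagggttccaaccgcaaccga
Mdm2, chr10:117710759-117711008, minus strand: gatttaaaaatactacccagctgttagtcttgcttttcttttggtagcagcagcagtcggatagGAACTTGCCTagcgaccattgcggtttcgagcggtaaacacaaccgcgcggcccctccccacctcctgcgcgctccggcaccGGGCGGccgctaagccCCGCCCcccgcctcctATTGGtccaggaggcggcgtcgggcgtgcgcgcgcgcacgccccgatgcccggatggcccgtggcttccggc
The Chek1 window held none of the 6 motifs and overlaps an exon of a non-coding Chek1 transcript in GENCODE. The Chek2 window held 2 CCAAT boxes, read on the opposite strand, the nearer one 26 bases before the start. The Atr window held 2 GC boxes, 72 and 48 bases before the start. The Mdm2 window held a p53 family half-site 186 bases before the start, 2 GC boxes and a CCAAT box. A match is a string of letters and not evidence of binding, and the 3 genes that differed among cohorts had no motif in common in these windows.

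The effector genes were near the limit of detection. Pmaip1 was counted 26, 9 and 19 times at PND13, 0, 8 and 12 times in PND16 small, 8, 8 and 10 times in PND16 large and 13, 7 and 22 times at PND40. At this depth no difference was detected. The 95% interval of PND40 vs. PND13 ran from -2.38 to 1.35 on the log2 scale, around -0.51. This estimate became 0.62 without the 3 pools with high granulosa markers. Bbc3 (chr7:16308393-16318205, plus strand) was counted 0, 19 and 1 times at PND13, 7, 0 and 9 times in PND16 small, 0, 6 and 0 times in PND16 large and 1, 0 and 0 times at PND40. Of the 12 pools, 6 were at 0, and a count of 0 allows up to 3 counts (counting error only, without molecular identifiers). At the totals of all 12 pools, without TMM scaling, 3 counts are 0.109 to 0.17 CPM. The upper end comes from PND16 small replicate 3, which was not at 0 but had 9 reads. The non-competent pools held 36 Bbc3 reads in all and the competent pools 7, and 19 of the 36 came from PND13 replicate 2. Among the non-competent pools, the 3 with high granulosa markers had 0, 1 and 0 reads, and the others had 19, 7 and 9. With so few reads Bbc3 did not enter the test.

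Across the pairwise comparisons, 2 of the 8 genes, Trp63 and Chek2, were called in PND40 vs. PND13, both lower, where 18.9% of all genes tested were called (6.31% higher and 12.6% lower). The same pair was called lower in PND40 vs. PND16 small, where 17.2% of all genes were called (6.89% higher and 10.3% lower). None of the 8 was called in the other 4 comparisons by edgeR or DESeq2. Of all genes, 13.3% were called in PND16 large vs. PND13, 6.19% in PND16 large vs. PND16 small, 3.66% in PND40 vs. PND16 large and 0.373% in PND16 small vs. PND13. At an unadjusted p under 0.05 there were 2, 3, 3 and 0 of the 8 genes in the same order, and 37.6%, 28.2%, 22.4% and 19.2% of all genes. The 8 genes are too few for these shares to be read as different from the background. The median log2 fold change of the 8 genes was -0.29 in competent vs. non-competent oocytes (-0.005 over all genes), -0.32 in PND40 vs. PND13 (0.004 over all genes) and 0.05 in PND16 small vs. PND13 (-0.03 over all genes). Leaving out the 3 pools with high granulosa markers gave the same number of called genes in each comparison.

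Ratios of counts within a pool need no scaling between pools. The 4 given here were formed after the levels had been seen, from the same counts, and are a description. An exact permutation test was run on them but, for that reason, is not used as evidence. Per kb, Trp63 was 1.60 times Trp53 at PND13 (range over pools 1.45 to 1.74), 1.49 times in PND16 small (1.32 to 1.64), 1.04 times in PND16 large (0.982 to 1.17) and 0.799 times at PND40 (0.764 to 0.852). The mean ratio per kb thus passed from above to below 1, which rests on the transcript lengths used, 5366 bases for Trp63 and 1867 for Trp53. In reads, Trp63 exceeded Trp53 in every pool, also at PND40 (1040, 1166 and 1160 against 463, 476 and 528). Competent and non-competent pools differed by -0.76 on the log2 scale. Chek1 over Chek2 was 42.0 per kb at PND13, 48.1 in PND16 small, 66.9 in PND16 large and 95.7 at PND40. Its log2 difference was 0.83, with PND16 large replicate 3 (54.8) inside the range of the non-competent pools (34.1 to 57.2). Chek1 over Atr was 6.03 per kb at PND13, 6.17 in PND16 small, 8.44 in PND16 large and 9.69 at PND40, a log2 difference of 0.57. Atr over Atm was 4.91, 4.72, 5.61 and 4.43 per kb in the same order, a log2 difference of 0.05 with overlapping pools.

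**Figure D4:**
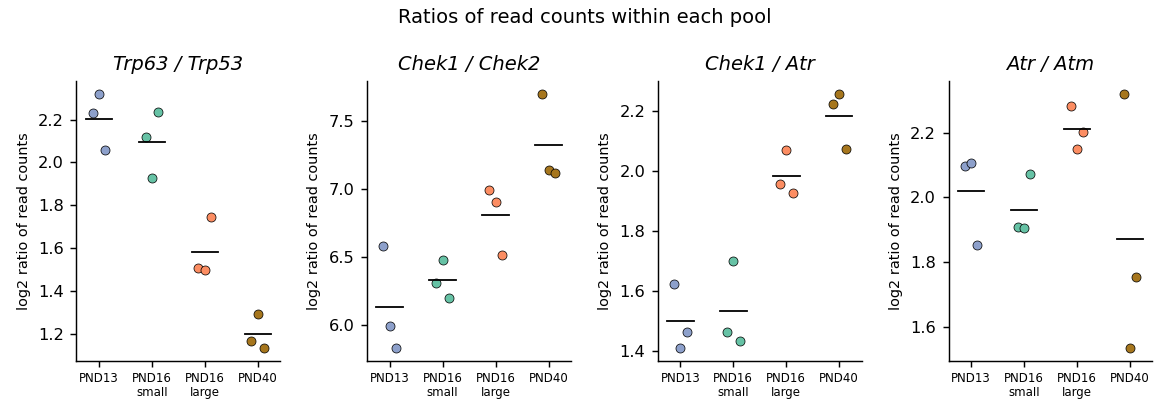
Log2 ratio of read counts within each pool (y axis, not divided by transcript length, not starting at 0) for 4 pairs of genes in the 4 cohorts (x axis); circles are pools and lines are means. Competent and non-competent pools do not overlap for Trp63 over Trp53 (difference -0.76) and Chek1 over Atr (0.57), and they overlap for Chek1 over Chek2 and Atr over Atm.

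The other genes of the pathway were taken from a list of 57, of which 55 were tested. In competent vs. non-competent oocytes 0 rose and 7 fell, beside 3.78% of all genes that rose and 11.2% that fell, so that the count was near the background. The median log2 fold change of the 55 was -0.09 against -0.005 over all genes. Further genes of the list passed the adjusted p but changed less than 1.5-fold. Of these, Timeless, Csnk1e, Cdc25a, Ppm1d, Hus1, Bcl2l11 and Trp53bp1 were higher in competent oocytes, and Csnk1d, Rad1, Mdc1 and Trip13 were lower. By role, 1 of 19 sensors and mediators fell, 2 of 12 other kinases and regulators of p53 and p63, 2 of 8 cell cycle targets and 2 of 16 death and stress targets. Without the 3 pools with high granulosa markers, 8 of the 55 fell, Trip13 being the addition.

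Rad9a, which encodes a subunit of the clamp that loads at damaged DNA and helps activate ATR, fell from 7.12 ± 2.00 to 2.78 ± 0.503 CPM (n = 6 pools each, log2 fold change -1.36, SE 0.214, adjusted p = 0.000412). Wee1, which encodes the inhibitory kinase of CDK1, fell from 89.1 ± 11.7 to 48.4 ± 7.27 CPM (log2 fold change -0.88, adjusted p = 8.85e-05). In both genes every competent pool was below every non-competent pool. Of the p53 target genes, Aen, an apoptosis-enhancing nuclease, fell from 7.60 ± 1.99 to 3.63 ± 0.721 CPM (-1.07, adjusted p = 0.00208), with 4.03 CPM in PND16 small replicate 2 inside the competent range. Ccng1, cyclin G1, fell from 10.7 ± 1.46 to 5.44 ± 1.28 CPM (-0.98, adjusted p = 0.000675). Zmat3, an RNA-binding protein, fell from 13.1 ± 1.74 to 7.22 ± 1.36 CPM (-0.85, adjusted p = 0.000912). Ccng1 and Zmat3 did not overlap between the groups. These 5 genes stayed called in each alternative analysis run. Prkdc, the catalytic subunit of DNA-PK, lies outside the 6 largest changes and is added for completeness: it was at 83.1 ± 6.72 CPM at PND13, 83.6 ± 10.7 CPM in PND16 small, 59.6 ± 1.47 CPM in PND16 large and 37.5 ± 5.52 CPM at PND40 (-0.78, adjusted p = 0.00144).

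Hormad1, a chromosome axis protein of meiotic prophase, had the largest fold change (-3.01, SE 1.02, adjusted p = 0.039), but from 2 pools. PND13 replicate 2 had 11.3 CPM and PND16 small replicate 1 had 6.17 CPM, whereas the other 10 pools had 0.164 to 0.796 CPM. These 2 are the pools with the lowest granulosa marker sums. Without PND13 replicate 2 the log2 fold change was -1.93 (adjusted p = 0.111), without PND16 small replicate 1 it was -2.70 (adjusted p = 0.0672), and the call was also lost without PND16 large replicate 1 or 2 or any one PND40 pool.

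**Figure D5:**
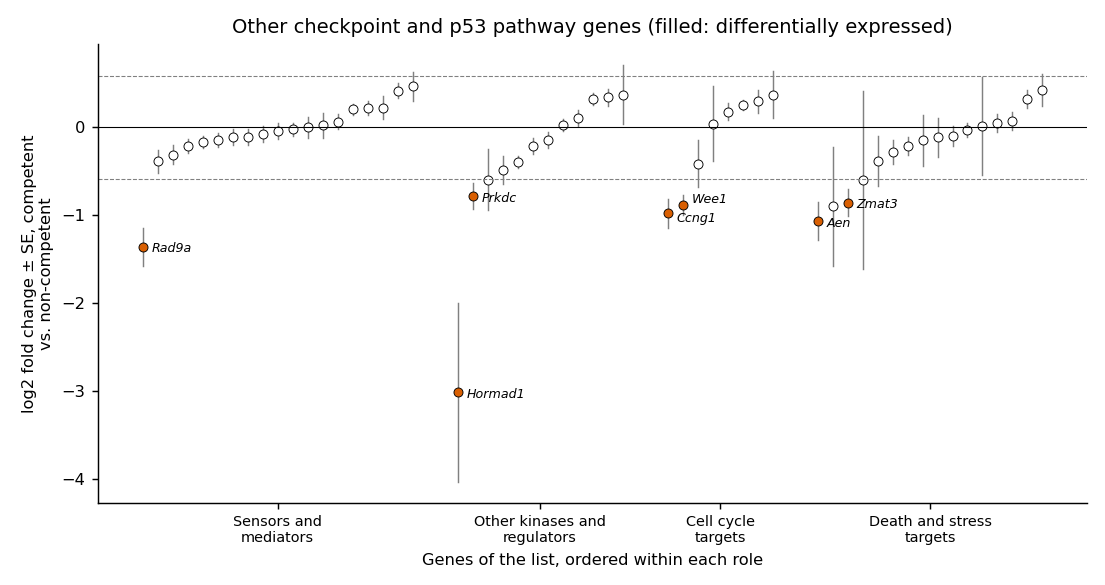
Log2 fold change ± SE in competent vs. non-competent oocytes (y axis) of the 55 other pathway genes tested, ordered within 4 roles (x axis); filled circles are differentially expressed and named, and dashed lines mark a 1.5-fold change. All 7 filled circles lie below 0, and Hormad1 at -3.01 has the longest error bar among them.

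Against PND13, 3 of the 55 rose and 8 fell at PND40, beside 6.31% and 12.6% of all genes. Against PND16 small also 3 rose and 8 fell, beside 6.89% and 10.3% of all genes, and both counts were near the background. Without the 3 pools with high granulosa markers, 0 rose and 7 fell against PND13, and 5 rose and 9 fell against PND16 small. The pathway genes called without the 3 pools were not all those called with them, also where the counts are similar. The genes that rose with all pools kept are named after their values were seen. Trp53bp1, a double-strand break mediator, was at 153 ± 4.88 CPM at PND13, 141 ± 41.4 CPM in PND16 small, 160 ± 23.8 CPM in PND16 large and 248 ± 6.67 CPM at PND40, and it rose at PND40 against each of the 3 (adjusted p = 0.00692, 0.00326 and 0.0402). Without the 3 pools it stayed called against PND16 small alone. Trp73, the third gene of the p53 family, was at 11.4 ± 3.28, 5.82 ± 1.27, 6.91 ± 2.04 and 15.5 ± 2.92 CPM in the same order, and it rose at PND40 against PND16 small (1.41, adjusted p = 0.00201) and PND16 large (1.17, adjusted p = 0.0222). Timeless, a replication fork protein, rose from 165 ± 15.7 CPM at PND13 to 259 ± 13.9 CPM at PND40 (0.65, adjusted p = 0.000124), a call lost without the 3 pools. The others were Bax, the pore-forming death protein, against PND13 (0.65, adjusted p = 0.0489, also lost without the 3 pools) and Btg2, an antiproliferative p53 target, against PND16 small (0.97, adjusted p = 0.0416). In PND16 large vs. PND13, 0 rose and 6 fell (3.52% and 9.8% of all genes), and 0 and 5 without the 3 pools. In PND16 large vs. PND16 small, 0 rose and 4 fell (1.43% and 4.76% of all genes), and 0 and 6 without the 3 pools, with Aen and Prkdc added. In PND40 vs. PND16 large, 2 rose and 1 fell (2.34% and 1.32% of all genes), and 1 and 1 without the 3 pools. None was called in PND16 small vs. PND13 with or without them.

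The genes whose log2 CPM followed Trp63 most closely over the 12 pools were Aspg (Pearson's r = 0.984), Ppp2r3a (0.982), Larp1b (0.982), Zbtb18 (0.979) and Khdc1a (0.978). All 5 had their lowest mean at PND40: Aspg fell in steps from 23.1 CPM at PND13 to 12.5 in PND16 large and 7.20 CPM at PND40, and Zbtb18 from 171 to 110 and 81.3 CPM. Chek1 was most like Ube4b (0.969) and Ano2 (0.965), Chek2 like Kmt5c (0.946) and Bcas2 (0.935), and Atr like Zscan12 (0.949) and Phf21a (0.943). The closest to Atm were Dtnb (0.94) and Tmem69 (0.925), and to Trp53 Prickle3 (0.94) and Rpl10 (0.884). Those to Mdm2 were Tank (0.929) and Ssfa2 (0.901), and those to Pmaip1 Dagla (0.906) and Arhgef37 (0.878). Without the 2 pools farthest from the median, Dagla and Arhgef37 dropped to 0.668 and 0.603, and Prickle3 and Ssfa2 to 0.747 and 0.786. Rpl10, Tmem69 and Dagla were low, with cohort means of at most 0.961, 1.74 and 0.901 CPM. Among the 9 genes themselves, Trp63 correlated with Chek2 (0.831), Atr (0.8) and Chek1 (-0.712), and Atr with Chek2 (0.815). All of these describe 12 pools that share cohorts and libraries, and they were the highest of many.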

How the data were processed

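RNA-Seq was performed in 12 pools of oocytes (rRNA-depleted, directional libraries). The authors deposited raw counts per gene and log2 values, which are log2(count/size factor + 1). The submitters' processing notes name mm10, FastQC, STAR, HTSeq, DESeq2, DESeq and HOMER, and the strand setting of the counting is not given in the sources used here. Sample labels gave cohorts and replicate numbers. None of the 18 same-number pairs of pools had a correlation of deviations over 0.1, so the numbers were not taken as pairs. Counts were filtered (filterByExpr, minimum count 10), scaled by TMM (factors 0.955 to 1.07) and fitted by robust quasi-likelihood in edgeR 4.0.16 (R 4.3.3): 1 model of the 4 cohorts, and 1 of 6 competent vs. 6 non-competent pools. The pipeline was tested on simulated data. SE is the absolute log2 fold change over the square root of F. For correlations, CPM were taken to log2 after adding a prior count of 2. Coordinates and lengths are from GENCODE M21 (GRCm38). The alternatives included DESeq2 1.42.0 and limma 3.58.1.

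The 9 genes and all lists were chosen with earlier results of these data known, and the count ratios and the leave-out of 3 pools after these values were seen. Besides the 9 genes, the called pathway genes of competent vs. non-competent oocytes (at most 6 in each direction, by fold change) and the most similar genes by Pearson's r (5 for Trp63, 2 for each other gene tested) were named.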

Additional observations from a re-analysis of the deposited data

Results flagged for a closer look

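Bbc3 reached 0.237 CPM (6 reads) in PND16 large replicate 2, far from the other 5 competent pools, which had 0 or 1 read. In 32 groups of 6 pools examined this way (each of the 9 genes and the 7 called pathway genes in competent and non-competent pools), it was the only pool whose gap to its neighbor exceeded the 95% critical share of the group's range (Dixon's test), and chance alone would give about 1 in 20 groups.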

How the results depend on the processing

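Of the 56 pairs of gene and comparison among the 8 genes tested, 16 had an adjusted p of at most 0.05, and none of these turned in direction under any alternative. Of the others, 16 turned under at least 1 alternative and 4 gained an adjusted p of at most 0.05 (Atm in 2, Atr and Chek2 in 1 each). Single values were recomputed for comparisons of the 8 genes that had passed, for their 4-cohort tests, passed or not, and for the pathway genes named by fold change. Of these values, 557 stayed on the same side of the threshold and 45 lost it. Because most had passed at the outset, the tally could show few gains. DESeq2, the 3 other scalings, the 2 other count filters, limma at both pseudocounts and the contrast of cohort means gave the same number of called genes among the 9 in every comparison in which they were run. Without the 1.5-fold criterion the number of called genes was 2 in PND16 large vs. PND13, 4 in PND40 vs. PND13, 2 in PND16 large vs. PND16 small, 4 in PND40 vs. PND16 small, 1 in PND40 vs. PND16 large, 3 in competent vs. non-competent pools, and 18 in the pathway list. The share of all genes passing by the adjusted p alone was not counted in these comparisons, so the numbers have no background beside them. At an unadjusted p under 0.05, 2, 4, 3, 4, 3 and 5 of the 8 genes passed in the same order of comparisons. Of all genes, 37.6%, 43.1%, 28.2%, 40.9%, 22.4% and 42.1% passed at this unlike threshold. With only the cohorts compared in the model, PND40 vs. PND16 small gave 1, as Chek2 was lost (adjusted p = 0.0708). When single pools were left out, the number was 0 to 1 in PND16 large vs. PND16 small, where Trp63 was called without PND16 large replicate 3, 1 to 2 in PND40 vs. PND16 small, and 1 to 2 in competent vs. non-competent pools, where Chek2 was added without PND16 large replicate 3. The cause was not tested. With the replicate block the counts were 2 in PND40 vs. PND13, 2 in PND40 vs. PND16 small, 1 in competent vs. non-competent pools and 4 in the 4-cohort test, and 6 of the pathway list, as Hormad1 was lost (adjusted p = 0.141). Total-count scaling moved the median of all genes to -0.12 in PND16 small vs. PND13 and -0.13 in PND16 large vs. PND13. Low counts limit Chek2, Pmaip1 and Bbc3.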
